A study of Homo sapiens with 11 samples.

Results

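The S100 genes encode small calcium-binding proteins, and 10 of them are described here in related lines of human acute myeloid leukaemia (AML) exposed to an inhibitor of chromatin remodelling. The members were taken by name: S100A4, S100A6, S100A8, S100A9, S100A10, S100A11, S100A12, S100A13, S100P and S100Z, out of 58037 gene identifiers in the deposited count table. The series holds 11 paired-end RNA-seq libraries. OCI-AML3-FLT3-ITD, called the ITD line below, is named for the internal tandem duplication of the receptor kinase gene FLT3, and OCI-AML3 is the established AML line set beside it. The groups were the ITD line with 100 nM FHD-286 for 16 h (n = 2), ITD line controls (n = 3), OCI-AML3 with 100 nM FHD-286 for 16 h (n = 3) and OCI-AML3 controls (n = 3). FHD-286 inhibits BRG1 and BRM, the ATPases that drive the BAF chromatin remodelling complexes. The labels do not state how the ITD allele was introduced, whether the ITD line is 1 clone, or whether controls received a vehicle.

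An S100 protein is built around a pair of EF-hands, loops that bind calcium, and usually works as a dimer that changes shape when calcium rises and then grips a partner protein. S100A8 and S100A9 form calprotectin, which neutrophils and monocytes carry in large amounts in the cytosol. It withholds zinc and manganese from microbes and, once released, signals through TLR4 and the receptor AGER. S100A12 belongs to the same calgranulin group. S100A4 binds non-muscle myosin and is known for its part in cell motility, S100A6 binds the ubiquitin-pathway proteins CACYBP and SUGT1, S100A10 pairs with annexin A2 without needing calcium, and S100A11 binds annexin A1. S100A13 takes part in the release of FGF1, and S100P binds ezrin.

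All members but S100P and S100Z lie on chromosome 1q21 (GRCh38, GENCODE 29). S100A10 (ENSG00000197747.8, chromosome 1, 151982915 to 151994390, minus strand) and S100A11 (ENSG00000163191.5, 152032506 to 152047907, minus strand) stand at one end. S100A9 (ENSG00000163220.10, 153357854 to 153361027, plus strand), S100A12 (ENSG00000163221.8, 153373706 to 153375649, minus strand) and S100A8 (ENSG00000143546.9, 153390032 to 153391188, minus strand) follow as a group, with 12.7 kb and 14.4 kb between neighbours. S100A6 (ENSG00000197956.9, 153534599 to 153536244, minus strand), S100A4 (ENSG00000196154.11, 153543613 to 153550136, minus strand) and S100A13 (ENSG00000189171.14, 153618787 to 153631360, minus strand) form the far side. S100P (ENSG00000163993.6) lies on chromosome 4, 6693069 to 6697170, plus strand, and S100Z (ENSG00000171643.13) on chromosome 5, 76850001 to 76921650, plus strand. Of S100A13's exon length 33.5% is shared, in part with S100A1 on the opposite strand, and of that of S100A6 2.37%. Exons of the other 8 members overlap no annotated gene.

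RefSeq promoter windows of 250 bases before annotated RefSeq starts, on GRCh38.p14, were found for all 10 members, 14 windows in all. These starts can differ from the GENCODE gene bounds given above. In several members, S100A4, S100A10 and S100A11 among them, the window lies within those bounds. The windows of the calprotectin genes, of S100A4, and of the S100A11 and S100A10 pair are shown as examples. With all libraries S100A10 was called in no comparison below, and S100A6, called in both lines, is not shown. S100A8 has 3 annotated starts, and the window shown is the one that holds both a C/EBP and a PU.1 match. Each is written 5′ to 3′ on the strand of the gene, and capitals mark matches, on either strand, to TTNNGNAA (the C/EBP factors), GAGGAA (PU.1) or TGANTCA (AP-1).
S100A9 promoter, chr1:153357604-153357853, plus strand: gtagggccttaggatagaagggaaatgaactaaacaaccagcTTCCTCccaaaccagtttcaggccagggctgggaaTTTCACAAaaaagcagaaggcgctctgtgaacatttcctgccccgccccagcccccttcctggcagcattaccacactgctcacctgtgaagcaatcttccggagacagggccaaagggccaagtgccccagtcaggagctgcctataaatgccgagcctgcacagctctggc
S100A8 promoter, chr1:153391074-153391323, minus strand: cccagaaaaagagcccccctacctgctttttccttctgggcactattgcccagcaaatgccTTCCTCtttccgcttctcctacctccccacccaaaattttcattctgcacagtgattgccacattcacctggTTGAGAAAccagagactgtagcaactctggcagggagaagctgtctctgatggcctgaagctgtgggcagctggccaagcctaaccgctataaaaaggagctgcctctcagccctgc
S100A4 promoter, chr1:153545807-153546056, minus strand: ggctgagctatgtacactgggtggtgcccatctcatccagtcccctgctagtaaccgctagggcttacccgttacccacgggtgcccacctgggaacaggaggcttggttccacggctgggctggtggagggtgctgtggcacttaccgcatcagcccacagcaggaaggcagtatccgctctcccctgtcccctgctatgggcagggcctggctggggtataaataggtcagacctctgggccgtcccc
S100A11 promoter, chr1:152037005-152037254, minus strand: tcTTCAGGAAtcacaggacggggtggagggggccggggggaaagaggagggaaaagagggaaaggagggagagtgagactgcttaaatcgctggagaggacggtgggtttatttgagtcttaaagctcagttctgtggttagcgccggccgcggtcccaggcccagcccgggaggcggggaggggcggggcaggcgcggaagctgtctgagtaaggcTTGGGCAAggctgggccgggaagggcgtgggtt
S100A10 promoter, chr1:151993860-151994109, minus strand: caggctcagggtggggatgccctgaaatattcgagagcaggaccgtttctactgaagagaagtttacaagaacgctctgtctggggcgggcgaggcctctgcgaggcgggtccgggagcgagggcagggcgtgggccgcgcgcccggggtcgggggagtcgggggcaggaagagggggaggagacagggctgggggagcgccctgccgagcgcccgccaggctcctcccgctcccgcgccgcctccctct
S100A9 held 1 C/EBP and 1 PU.1 match. The S100A8 window shown, chosen because it holds both motifs, had 1 of each. Of the S100A8 windows not shown, 1 held 1 PU.1 match alone and 1 held 2 C/EBP matches alone. S100A11 held 2 C/EBP matches. S100A4 and S100A10 held none of the motifs. Among the members not shown, S100A12 held 2 C/EBP matches and the only AP-1 match of the members, S100P held 2 C/EBP matches, S100A6 and 1 of 3 S100A13 windows held 1, and S100Z held 1 PU.1 match. No match in the S100A12 window overlapped another. Over 35116 promoters of the same length, 33.2% held the C/EBP motif, 23.6% the PU.1 motif and 6.57% the AP-1 motif, so that matches of this kind are common. They describe the letters in these windows and show no binding.

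The libraries held between 58397190 and 79172389 counts. Levels are given as CPM (counts scaled to a common library total with TMM factors), and 3 counts in a library correspond to between 0.0366 and 0.0548 CPM, a limit of counting only. Nothing in the sources says that replicates were separate cultures, so p-values measure the spread between these libraries, which may be technical. One library stood apart: that labelled as ITD line control number 2, called ITD control 2 below, had FLT3 at 53.4 CPM. The other ITD libraries had 169 to 203 CPM and OCI-AML3 libraries 39.2 to 43.1 CPM. Its mitochondrial share was the highest at 8.85%, where the remaining 10 libraries had 4.48% to 7.54%, and the part of this in the results was not tested. Its log CPM over all genes had correlations of 0.957 and 0.960 with ITD controls 1 and 3 and of 0.979 to 0.984 with OCI-AML3 controls. It stays in the group its label names, and results that rest on it are also given without it. All 10 markers of myeloid identity, from CD33 to PRTN3, had counts in every group. CD68 among them was near the detection limit, at 0.0137 to 0.0732 CPM in treated ITD libraries and at most 18 counts in any library. Other genes overlap 85.8% of its exons. HBB, PF4 and CD3E, markers of other blood cells, were at 0 in all libraries, and the summed erythroid and lymphoid markers stayed at or below 0.866 and 5.38 CPM. Stromal and epithelial markers summed to 4.89 to 4.94 CPM in treated ITD libraries, 10.4 to 29.3 in ITD controls, 24.6 to 27.6 in treated OCI-AML3 and 28.5 to 31.2 in OCI-AML3 controls, nearly all of it PECAM1, which leukocytes also express. The part of these markers in the results was not tested.

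The members differed in level by more than 3 orders of magnitude. Compared per kilobase of merged exons, S100A11 was highest in all 4 groups, at 507 ± 19.4 CPM per kb in treated ITD cells (n = 2), 494 ± 146 in ITD controls, 676 ± 30.9 in treated OCI-AML3 and 416 ± 29.8 in OCI-AML3 controls (SD, n = 3 each). S100A13, S100P and S100A12 took the lowest places of the detected members in every group. Below S100A11 the order changed with treatment. In OCI-AML3 with FHD-286 it ran S100A6, S100A10, S100A9, S100A8, S100A4, while in OCI-AML3 controls it ran S100A9, S100A6, S100A4, S100A10, S100A8, with no overlap between neighbours. With the longest transcript in place of merged exons S100A6 came before S100A9 in those controls. In treated ITD cells the order was S100A6, S100A10, S100A4, S100A9, S100A8, and S100A4 and S100A9 overlapped. In ITD controls S100A6, S100A9, S100A10 and S100A4 followed each other with overlapping ranges, and S100A8 lay below them. S100A11 made up 88.0% and 87.3% of the summed S100 level per kb in treated ITD cells, against 67.7% to 77.8% in ITD controls. Its share was 85.4% to 87.0% in treated OCI-AML3 cells and 63.5% to 64.2% in OCI-AML3 controls. S100Z, which pairs with S100P, had 0 counts in all 11 libraries, which allows up to 0.0548 CPM, and is not tested below.

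**Figure D1:**
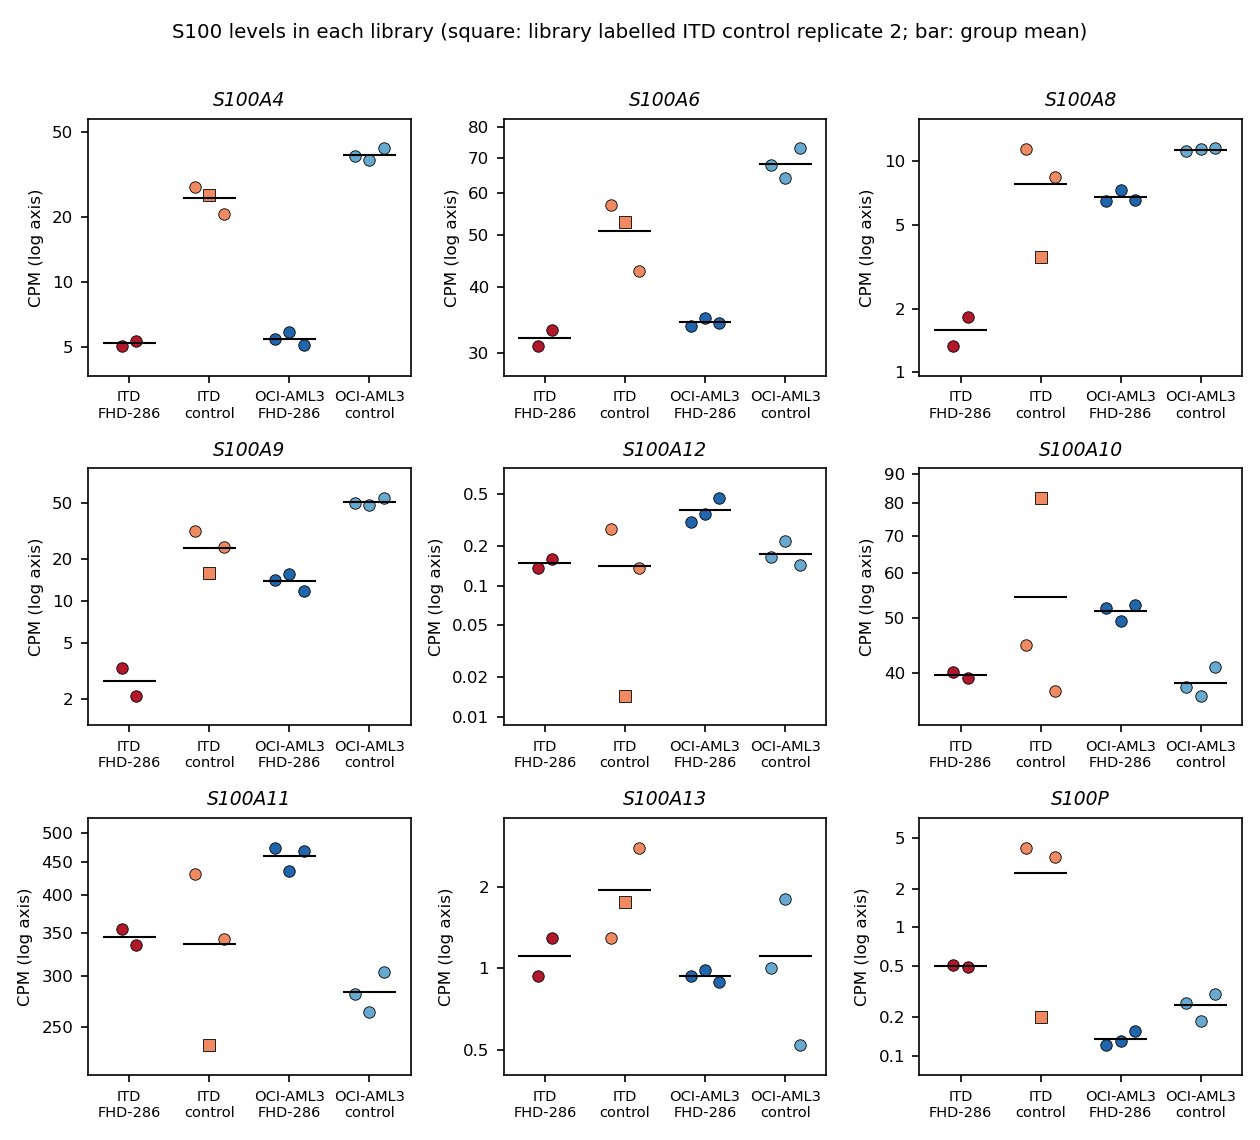
CPM on a log axis of the 9 detected members in each library, with the ITD line (ITD) left and OCI-AML3 right, FHD-286 before control in each, and bars for group means (n = 2, 3, 3 and 3). S100A4, S100A6, S100A8 and S100A9 are lower in every treated library than in every control of the same line. S100A11 is higher in every treated OCI-AML3 library than in OCI-AML3 controls. ITD control 2 (square) lies below the other ITD controls for S100A8, S100A9, S100A11, S100A12 and S100P and above them for S100A10.

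FHD-286 lowered the calprotectin gene S100A9 and the motility gene S100A4 in both lines. S100A9 fell to 2.70 ± 0.846 CPM in treated ITD cells against 23.9 ± 7.78 in ITD controls (SD, n = 2 and 3), and to 13.8 ± 1.90 CPM in treated OCI-AML3 against 51.1 ± 3.10 in OCI-AML3 controls (n = 3 each). S100A4 fell to 5.21 ± 0.215 CPM against 24.5 ± 3.53 in the ITD line, and to 5.48 ± 0.399 against 39.0 ± 2.58 in OCI-AML3. S100A6 also fell in both lines, and S100A11 rose in OCI-AML3. S100A8 fell in the ITD line and was lower in OCI-AML3 too, where it did not pass the test below with all libraries. In bulk RNA, fewer cells that carry a transcript and less of it per cell cannot be told apart, and this holds for all levels below.

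Of 9 members tested with edgeR's quasi-likelihood test at a Benjamini-Hochberg adjusted p under 0.05, 4 were called in the ITD line, all lower, where 30.5% of all 18908 genes tested were called (14.9% lower and 15.6% higher). In OCI-AML3 4 were called, 3 lower and 1 higher, where 41.3% of all genes were called (21.5% lower and 19.8% higher). The median log2 fold change of the 9 was -0.80 in the ITD line and -0.75 in OCI-AML3, beside -0.02 and 0.01 for all genes. The share called in OCI-AML3, 4 of 9, lay near the background share. Without ITD control 2, whose presence raises the spread shared by all groups, 5 members were called in the ITD line, all lower, beside 49% of genes (24.2% lower and 24.8% higher). In OCI-AML3 8 were called, 5 lower and 3 higher, beside 58.8% of genes (29.8% lower and 29% higher).

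**Figure D2:**
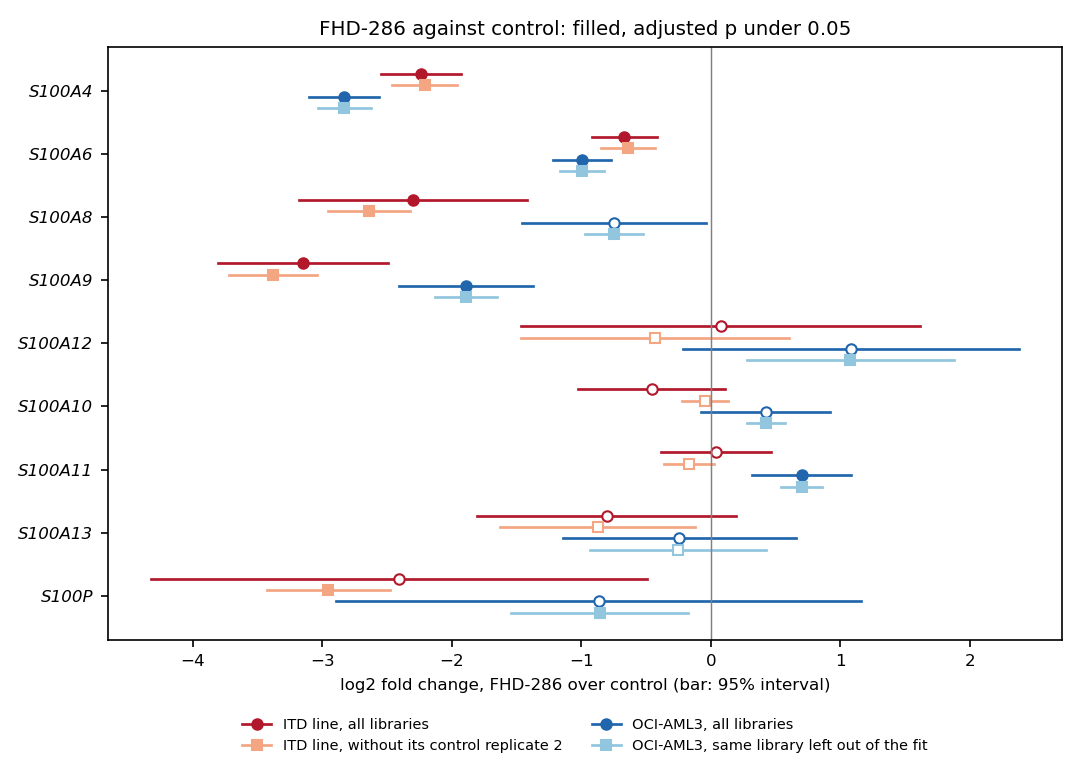
Log2 fold change of FHD-286 over control for the 9 tested members with 95% intervals, in the ITD line (red) and OCI-AML3 (blue), from all libraries (circles) and without ITD control 2 (squares); filled symbols have an adjusted p under 0.05. S100A4, S100A6, S100A8 and S100A9 lie left of 0 in both lines under both fits, as do the estimates of S100A13 and S100P. S100A10, S100A11 and S100A12 lie right of 0 in OCI-AML3.

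S100A9, the larger and regulatory subunit of calprotectin, had 3.30 and 2.10 CPM in treated ITD libraries, against 31.5, 15.9 and 24.3 CPM in ITD controls 1, 2 and 3. Each treated library lay below every control, and ITD control 2 was the lowest of the controls. This gave a log2 fold change of -3.15 (SE 0.30; adjusted p 3.44e-05, edgeR quasi-likelihood test), and -3.38 (SE 0.16) without ITD control 2. In OCI-AML3 S100A9 had 14.1, 15.5 and 11.8 CPM with FHD-286, against 50.03, 48.7 and 54.6 CPM in controls. The groups were far apart, with a log2 fold change of -1.89 (SE 0.23; adjusted p 0.000109, edgeR).

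S100A8, the zinc-binding partner of S100A9, had 1.33 and 1.83 CPM in treated ITD libraries, against 11.4, 3.52 and 8.48 CPM in ITD controls 1, 2 and 3. The groups did not overlap, and ITD control 2 lay nearest to the treated libraries. The fitted log2 fold change was -2.30 (SE 0.40; adjusted p 0.00165, edgeR), and -2.64 (SE 0.15) without ITD control 2. In OCI-AML3 S100A8 had 6.50, 7.30 and 6.57 CPM with FHD-286, against 11.2, 11.4 and 11.5 CPM in controls. These ranges did not overlap either, yet the log2 fold change of -0.75 (SE 0.32; adjusted p 0.0884, edgeR) missed the threshold with the spread shared by all 11 libraries. It passed at the same size without ITD control 2 (SE 0.11; adjusted p 4.48e-06, edgeR), a library in neither group of that comparison.

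S100A12, the third calgranulin, was near the detection limit. It had 10 and 13 counts in treated ITD libraries, against 19, 1 and 11 in ITD controls. The ranges overlapped, and ITD control 2 held the single count. The fitted log2 fold change was 0.08 (SE 0.69), with a 95% interval from -1.46 to 1.61, and -0.43 (SE 0.50) without ITD control 2. In OCI-AML3 S100A12 had 23, 27 and 36 counts (0.308, 0.350 and 0.467 CPM) with FHD-286, against 9, 14 and 8 counts (0.164, 0.219 and 0.144 CPM) in controls. Every treated library was above every control. The log2 fold change of 1.08 (SE 0.59; adjusted p 0.168, edgeR) did not pass, and passed without ITD control 2 (adjusted p 0.0205). Though it lies between S100A9 and S100A8, its fitted change in OCI-AML3 had the opposite sign.

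The balance within the calprotectin pair also differed between treated and control libraries, though this was not tested. Per kilobase, the ratio of S100A9 to S100A8 was 4.31 and 2.00 in treated ITD libraries and 4.81, 7.87 and 5.005 in ITD controls 1, 2 and 3. It was 3.79, 3.70 and 3.12 in treated OCI-AML3 libraries and 7.79, 7.43 and 8.25 in OCI-AML3 controls. Treated libraries were lower than controls in each line, but in the ITD line 1 treated library, at 4.31, lay close to the control at 4.81. ITD control 2 lay within the range of OCI-AML3 controls.

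S100A4 had 5.05 and 5.36 CPM in treated ITD libraries, against 27.6, 25.4 and 20.7 CPM in ITD controls. ITD control 2 lay inside its group here. With both groups apart, the log2 fold change was -2.24 (SE 0.14; adjusted p 2.72e-06, edgeR). In OCI-AML3 it had 5.45, 5.89 and 5.09 CPM with FHD-286, against 38.4, 36.8 and 41.8 CPM in controls. The log2 fold change was -2.83 (SE 0.12; adjusted p 1.41e-07, edgeR), and the treated libraries of both lines overlapped although their controls did not.

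S100A6, calcyclin, is separated from S100A4 by S100A5 and fell less. It had 30.9 and 33.2 CPM in treated ITD libraries, against 56.97, 53.02 and 42.9 CPM in ITD controls. All controls were above both treated libraries, with a log2 fold change of -0.67 (SE 0.11; adjusted p 0.00147, edgeR). In OCI-AML3 it had 33.8, 34.9 and 34.1 CPM with FHD-286, against 67.7, 64.1 and 72.9 CPM in controls. The treated libraries lay close together and far below the controls, and the log2 fold change was -0.99 (SE 0.10; adjusted p 2.86e-05, edgeR). The ratio of S100A6 to S100A4 per kilobase was 6.46 and 6.54 in treated ITD libraries and 2.18 to 2.21 in ITD controls, and 6.26 to 7.07 in treated OCI-AML3 libraries and 1.84 to 1.86 in OCI-AML3 controls. In this ratio ITD control 2, at 2.21, sat with the other ITD controls and outside the OCI-AML3 range.

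**Figure D3:**
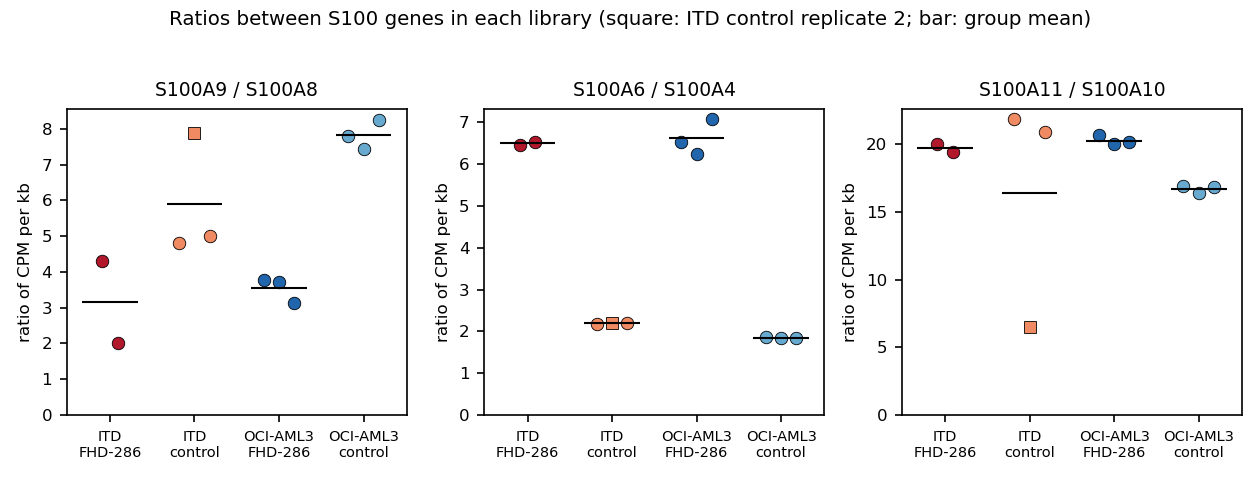
Ratio of the levels per kilobase of 3 pairs of members in each library, ordered as ITD line with FHD-286, ITD control, OCI-AML3 with FHD-286 and OCI-AML3 control, with bars for group means. S100A9 over S100A8 is lower and S100A6 over S100A4 higher in every treated library than in the controls of its line, and ITD control 2 (square) departs from its group for S100A9 over S100A8 and S100A11 over S100A10.

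S100A11 and S100A10 did not fall in OCI-AML3. S100A11 had 474, 436 and 469 CPM with FHD-286 there, against 281, 263 and 303 CPM in controls. The groups were well apart, with a log2 fold change of 0.70 (SE 0.17; adjusted p 0.00759, edgeR). In the ITD line S100A11 had 354 and 335 CPM with FHD-286, against 431, 234 and 342 CPM in controls 1, 2 and 3. The ranges overlapped, and ITD control 2 was the lowest library of all 11. The log2 fold change was 0.04 (SE 0.19; 95% interval -0.39 to 0.46), and -0.17 (SE 0.09; interval -0.36 to 0.03) without ITD control 2. Annotated processed copies of S100A11 held at most 17 counts in a library, against 15393 or more for S100A11 itself.

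S100A10 had 40.1 and 39.2 CPM in treated ITD libraries, against 44.8, 81.6 and 37.1 CPM in ITD controls 1, 2 and 3. ITD control 2 was the highest library of all 11. Its log2 fold change in the ITD line was -0.46 (SE 0.26; adjusted p 0.203, edgeR), and -0.05 (95% interval -0.22 to 0.13) without that library. In OCI-AML3 S100A10 had 52.1, 49.5 and 52.7 CPM with FHD-286, against 37.7, 36.5 and 40.97 CPM in controls. Every treated library was above every control, with a log2 fold change of 0.42 (SE 0.23; adjusted p 0.164, edgeR) that passed without ITD control 2 (SE 0.07; adjusted p 2.42e-05). The ratio of S100A11 to S100A10 per kilobase was 6.50 in ITD control 2 and 16.4 to 21.9 in the other 10 libraries.

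S100P, a ligand of AGER, was low in OCI-AML3 and higher in the ITD line. It had 37 and 40 counts (0.508 and 0.488 CPM) in treated ITD libraries, against 296, 14 and 284 counts (4.19, 0.202 and 3.55 CPM) in ITD controls 1, 2 and 3. ITD control 2 was below the treated libraries, and the others far above them. The log2 fold change of -2.41 (SE 0.86; adjusted p 0.0573, edgeR) passed without ITD control 2, at -2.95 (SE 0.23; adjusted p 1.04e-09). In OCI-AML3 S100P had 9, 10 and 12 counts with FHD-286, against 14, 12 and 17 in controls. These ranges met at a count of 12 but not in CPM, and the log2 fold change was -0.87 (SE 0.92; adjusted p 0.483, edgeR), or -0.86 (adjusted p 0.029) without ITD control 2.

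S100A13 had 0.934 and 1.29 CPM in treated ITD libraries against 1.29, 1.76 and 2.78 CPM in ITD controls. In OCI-AML3 it had 0.938, 0.986 and 0.894 CPM with FHD-286 against 1.005, 1.80 and 0.521 CPM in controls. Ranges overlapped in both lines, and neither the log2 fold change of -0.80 (SE 0.45) in the ITD line nor that of -0.24 (SE 0.41) in OCI-AML3 passed. S100A1, which overlaps it on the opposite strand, had 14 and 38 counts against 34, 38 and 62 in the ITD line and 12, 19 and 12 against 10, 37 and 9 in OCI-AML3. In both genes the highest OCI-AML3 library was control 2, and reads of the shared exons cannot be assigned between them without the strand.

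The FHD-286 effects were then compared between the lines, as the ITD effect minus the OCI-AML3 effect. None of the 9 members passed edgeR's test from all libraries, where 3.36% of genes did (1.38% lower and 1.98% higher), and 5 had an unadjusted p under 0.05: S100A4, S100A8, S100A9, S100A10 and S100A11. DESeq2's Wald test called 3, S100A4 as higher and S100A8 and S100A9 as lower. The estimates were 0.59 for S100A4 (95% interval 0.21 to 0.98; adjusted p 0.0962, edgeR), -1.55 for S100A8 (-2.65 to -0.46; adjusted p 0.127) and -1.26 for S100A9 (-2.04 to -0.48; adjusted p 0.0867). For S100A10 and S100A11 they were -0.88 and -0.66.

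Without ITD control 2, 6 of 9 members passed, where 17% of genes did (9.63% higher and 7.39% lower). S100A4 was higher at 0.62 (adjusted p 0.00685, edgeR), its fall being smaller in the ITD line. S100A8 at -1.90, S100A9 at -1.49, S100P at -2.09, S100A11 at -0.87 and S100A10 at -0.47 were lower (adjusted p 4.33e-07, 1.78e-05, 0.00109, 2.68e-05 and 0.00501, edgeR). S100A6 had a difference of 0.35 (95% interval 0.09 to 0.62; adjusted p 0.0652) and was not called.

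The levels behind these differences were not equal before treatment. In untreated cells, S100A4, S100A6 and S100A9 were lower in the ITD line than in OCI-AML3 and S100P was higher, 4 of 9 members called beside 28% of genes (13.5% lower and 14.5% higher). S100A4 was at 24.5 ± 3.53 CPM in ITD controls and 39.0 ± 2.58 in OCI-AML3 controls (SD, n = 3 each), S100A6 at 50.96 ± 7.26 and 68.2 ± 4.45, and S100A9 at 23.9 ± 7.78 and 51.1 ± 3.10. The log2 fold changes of the ITD line over OCI-AML3 were -0.67, -0.42 and -1.10 (adjusted p 0.00273, 0.0119 and 0.00673, edgeR). S100P was at 4.19, 0.202 and 3.55 CPM in ITD controls 1, 2 and 3, against 0.256, 0.188 and 0.305 CPM in OCI-AML3 controls. ITD control 2 lay inside the OCI-AML3 range. Its log2 fold change was 3.41 (SE 0.81; adjusted p 0.0118, edgeR), and 3.96 (SE 0.23) without that library. Without it 6 members were called beside 49.4% of genes, S100A11 at 0.45 and S100A13 at 0.87 being added as higher (25.4% of genes lower and 24.1% higher). S100A6 lost its call without OCI-AML3 control 3 (-0.37, adjusted p 0.0533, edgeR).

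In treated cells the lines differed in S100A8 and S100A9 and not detectably in S100A4 or S100A6, with 2 of 9 members called, both lower, beside 26% of genes (11.7% lower and 14.3% higher). S100A8 was at 1.58 ± 0.352 CPM in treated ITD cells and 6.79 ± 0.445 in treated OCI-AML3 cells (SD, n = 2 and 3; log2 fold change -2.10, SE 0.40; adjusted p 0.00404, edgeR). S100A9 was at 2.70 ± 0.846 and 13.8 ± 1.90 CPM (log2 fold change -2.36, SE 0.29; adjusted p 0.000389, edgeR). For S100A4 the log2 fold change was -0.07 with a 95% interval from -0.36 to 0.22, and for S100A6 -0.10 with an interval from -0.35 to 0.15. Without ITD control 2, which is in neither of these groups, 6 members were called beside 46.9% of genes (22.8% lower and 24.2% higher). S100A10 at -0.38, S100A11 at -0.42 and S100A12 at -1.33 were added as lower and S100P at 1.86 as higher. S100A8 lost its call without treated ITD library 1, at -1.89 (adjusted p 0.0573, edgeR).

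**Figure D4:**
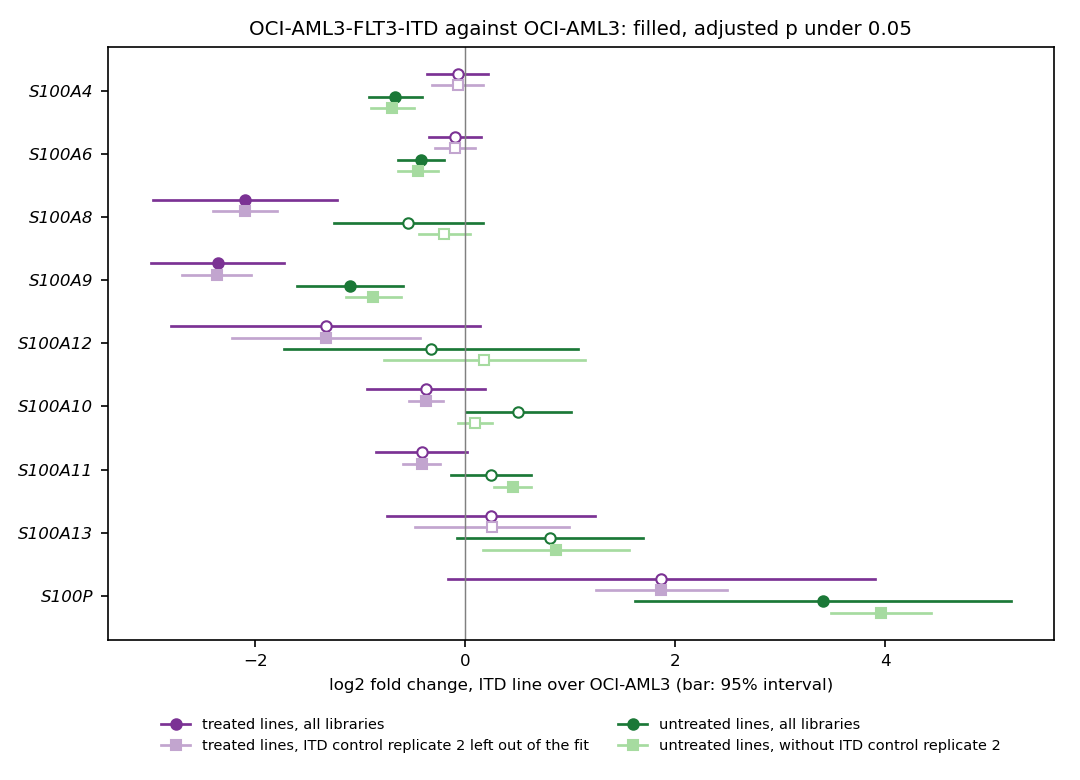
Log2 fold change of the ITD line over OCI-AML3 with 95% intervals for the 9 tested members, in treated cells (purple) and untreated cells (green), from all libraries (circles) and without ITD control 2 (squares); filled symbols have an adjusted p under 0.05. S100A8 and S100A9 lie furthest left in treated cells, S100P lies furthest right in untreated cells, and the treated intervals of S100A4 and S100A6 span 0.

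Along chromosome 1 the called falls lay in the block that runs from S100A9 to S100A4, and the called rise of S100A11 in OCI-AML3 lay in the pair at the other end. Position was not tested. Within the block S100A12, at 9 to 36 counts in OCI-AML3 libraries, had an uncalled estimate above 0 there. Of 13 genes listed as flanking the S100 genes, some of which lie between S100A11 and S100A9, 8 were tested. TCHH, which lies between them, was among the 8 with at most 16 counts in a library. In the ITD line 1 of the 8 was called, beside 30.5% of all genes. It was THEM4, a thioesterase gene, at -0.37 (adjusted p 0.0106, edgeR). In OCI-AML3 THEM4 and ILF2 were called lower at -0.42 and -0.50, and 2 genes were higher, SLC27A3, a fatty acid transporter family gene, at 0.70 among them. These 4 of 8 lay near the 41.3% of all genes called there (21.5% lower and 19.8% higher). The list's median was 0.05 in the ITD line and -0.09 in OCI-AML3, beside -0.02 and 0.01 for all genes. Of 11 other S100 family genes, S100A7, S100A7A and S100A7L2 were at 0 in every library and only S100A1 and S100A3 passed the filter, neither being called by edgeR in any comparison. S100A3 had at most 13 counts in a library.

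**Figure D5:**
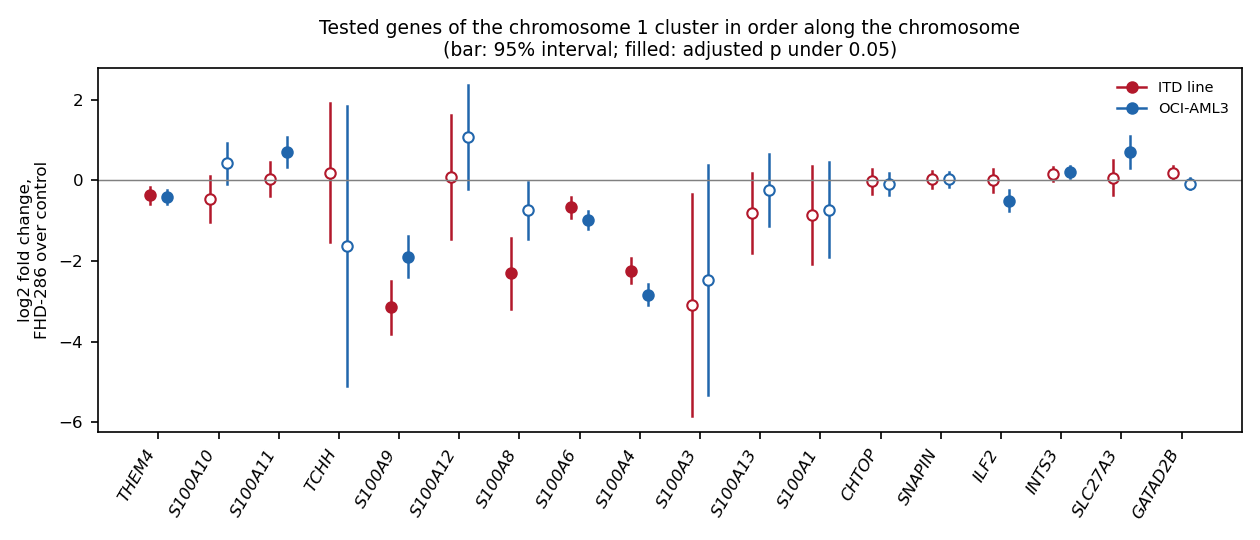
Log2 fold change of FHD-286 over control with 95% intervals for the tested genes of 1q21 in their order along the chromosome (not to scale), in the ITD line (red, left of each pair) and OCI-AML3 (blue), filled where adjusted p was under 0.05. S100A9, S100A8, S100A6 and S100A4 lie below 0 in both lines (S100A8 uncalled in OCI-AML3), while the flanking genes CHTOP to GATAD2B stay between -0.50 and 0.70.

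Genes of the receptors through which released S100 proteins signal, and their adaptors, changed in both directions. Of 10 tested, 4 were higher and 2 lower in the ITD line and 4 were higher and 4 lower in OCI-AML3, with medians of 0.14 and 0.29. Of all genes 15.6% were called higher and 14.9% lower in the ITD line, and 19.8% higher and 21.5% lower in OCI-AML3, and the lists that follow are read against the same shares. TLR4, a receptor of calprotectin, fell by 1.49 (SE 0.11) on the log2 scale in the ITD line and fell by 0.88 (SE 0.09) in OCI-AML3. MYD88, the adaptor of TLR4, fell by 0.51 and 0.53 in the ITD line and OCI-AML3. CD36, a scavenger receptor to which S100A8 and S100A9 with bound fatty acid can dock, rose by 1.03 and 0.87, and NPTN, a receptor of S100A8, rose by 0.50 and 0.57. AGER, not named by the rule for these lists, was not called in either line with all libraries. LY96, also on this list and not named by the rule, had too few counts to be tested, at most 10 in a library.

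Of 12 tested annexins and other intracellular partners, 5 were higher and 1 lower in the ITD line, and 3 were higher and 2 lower in OCI-AML3, with medians of 0.28 and 0.06. The 5 of 12 called in OCI-AML3 lay near the 41.3% of all genes called there, and in the ITD line 6 of 12 stood beside 30.5%. ANXA1, which S100A11 binds, rose by 1.88 (SE 0.23) in the ITD line and by 2.18 (SE 0.22) in OCI-AML3. MYH9, the heavy chain of the myosin that S100A4 binds, rose by 0.37 and 0.89. SUGT1 and S100PBP rose by 0.47 and 0.45 in the ITD line, and ANXA6 fell by 0.61 in OCI-AML3. AHNAK, a scaffold that binds the complex of S100A10 and annexin A2, fell by 2.00 in the ITD line, and by 0.94 without ITD control 2. ANXA2 itself, named for that complex and not by the rule, was at 0.09 (95% interval -0.22 to 0.39) in the ITD line and at -0.02 (-0.30 to 0.25) in OCI-AML3.

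Regulators known to act on S100A8 and S100A9 differed between the lines. Of 9 tested, 1 was higher and 3 lower in the ITD line, and 5 were higher and 4 lower in OCI-AML3, with medians of -0.52 and 0.35. These are 4 of 9 beside 30.5% of all genes called in the ITD line, and 9 of 9 beside 41.3% in OCI-AML3. The 9 include CEBPE, named for its low counts and not by the rule. It was at 0 in all treated libraries and at most 15 counts in any library. Without ITD control 2 it was not tested. Of the 8 tested then, 2 were higher and 5 lower in the ITD line, beside 49% of genes called. In OCI-AML3 5 were higher and 3 lower, beside 58.8%. The medians were then -0.37 and 0.63. SPI1, which encodes PU.1, was at 23.6 ± 0.654 CPM in treated ITD cells and 290.4 ± 23.1 in ITD controls, a log2 fold change of -3.62 (SE 0.12), and its log2 fold change in OCI-AML3 was -2.84 (SE 0.09). CEBPA fell by 1.75 in the ITD line and fell by 0.50 in OCI-AML3. CEBPB was at 49.8 ± 14.3 CPM in treated ITD cells and 76.1 ± 20.8 in ITD controls, a log2 fold change of -0.61 (SE 0.22; adjusted p 0.0568, edgeR) that did not pass, and that passed without ITD control 2 at -0.82 (adjusted p 8.51e-06). In OCI-AML3 CEBPB rose to 97.6 ± 1.63 CPM against 27.1 ± 1.63 in controls (log2 fold change 1.85, SE 0.20; adjusted p 4.24e-05, edgeR). KLF4 was at -0.26 in the ITD line and rose by 0.92 in OCI-AML3, and STAT3 rose by 0.81 and 1.27. The difference between the lines passed for CEBPB (-2.46), KLF4 (-1.18) and SPI1 (-0.78), among 5 regulators called, all lower, beside 1.38% of all genes called lower. In treated cells 6 of the 9 were lower in the ITD line than in OCI-AML3 and none higher, beside 11.7% and 14.3% of all genes. In untreated cells 3 were higher and none lower, beside 14.5% and 13.5% of all genes, but without ITD control 2 3 were higher and 3 lower of 8 tested. Annotated overlap with other genes covers 43.4% of CEBPA's and 11.8% of CEBPB's exons.

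Other myeloid genes of the lines fell as well. Of 10 markers of myeloid identity, 7 were lower and none higher in the ITD line, and 7 were lower and 1 higher in OCI-AML3, where 14.9% and 21.5% of all genes were called lower in the ITD line and OCI-AML3. LYZ, lysozyme, was at -3.05 and -3.84 in the ITD line and OCI-AML3, PRTN3, a granule protease gene, at -3.15 and -3.67, and MPO, the myeloperoxidase gene, at -3.14 and -1.50. CSTA, a cystatin gene, was the one called higher, at 0.39 in OCI-AML3. Annotated overlap covers 34.0% of LYZ's exons, and MPO stayed between 0.206 and 2.62 CPM.

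For each member the genes with the most similar course over the 11 libraries were sought among 10322 non-member genes, by the root mean square difference of mean-centred log2 CPM. S100A4 lay nearest to AIF1, a calcium-binding gene of macrophages, at a difference of 0.10, against its own spread of 1.28, followed by SLC37A2 (0.19) and HPDL (0.21). S100A6 lay nearest to DTD1, NDUFA8 and MRPS2 (0.06 each; own spread 0.45). S100A11 lay nearest to CTSB (0.11), ZDHHC24 (0.13) and CASP4 (0.13; own spread 0.33), and S100A10 to HPCAL1 (0.15), ABHD12B and STAT2 (0.16 each; own spread 0.33). For S100A9 they were RASL10B (0.47), CSF2RB (0.48) and DHRS9 (0.51; own spread 1.46), and for S100A8 ENDOG (0.47), ADAP1 (0.48) and FERMT3 (0.51; own spread 1.04). S100P lay nearest to PCDH9 (0.45), CARD9 (0.54) and ALDH2 (0.58; own spread 1.61), S100A12 to TIGAR (0.49), TAF13 (0.49) and AMIGO1 (0.51; own spread 0.89), and S100A13 to UTRN (0.35), MAMDC4 (0.37) and NPIPA1 (0.38; own spread 0.60). The calprotectin genes lay 0.62 from each other, S100A10 lay 0.47 from S100A11, and S100A4 lay 0.85 from its neighbour S100A6 and 0.83 from S100A9. These distances describe 11 libraries that share treatment and line, and say nothing of shared control.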

How the data were processed

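The authors deposited raw counts per gene as whole numbers for 58037 Ensembl identifiers in 11 libraries, 2 or 3 per group. Per the submitters' processing notes, STAR aligned the reads to hg38. Which program counted them, with which strand setting and annotation, was not given in the sources used here. Reads of overlapping genes cannot be told apart. Coordinates, symbols and exon lengths came from GENCODE 29 (57433 identifiers found) and promoter windows from RefSeq GRCh38.p14.

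Genes passing edgeR's filterByExpr (minimum count 10, minimum total 15) numbered 18908. After TMM scaling, edgeR 4.0.16 (R 4.3.3) fitted quasi-likelihood models with a mean for each of 4 groups, leaving 7 residual degrees of freedom, and tests were two-sided. Benjamini-Hochberg adjustment ran over all 18908 genes, and adjusted p under 0.05 made a call. SE is the log2 fold change divided by the root of the F statistic. CPM use the same factors, and CPM per kb divide by merged exon length. The common biological coefficient of variation was 0.193, and 0.0652 without ITD control 2. The fit was also run on simulated counts with 200 genes changed. Their spread was set below the common value of all 11 libraries, and no library was made to stand apart. That run cannot show how the fit behaves with a library such as ITD control 2.

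Alternatives were DESeq2 1.42.0, other scalings and filters, fits restricted to the compared groups, a replicate block, and fits with each library left out in turn. Members and lists were chosen with earlier results of these data known. Named were all members, the other S100 genes that passed the filter and, in each list, the 3 called genes of smallest p and 1 of the minority direction, with exceptions stated. For likeness, candidates had an average log2 CPM of at least 2.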

Additional observations from a re-analysis of the deposited data

Results flagged for a closer look

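The difference between the lines in the response to FHD-286 (ITD line minus OCI-AML3, log2) passed edgeR's test with all 11 libraries in 9 genes of the lists and in no S100 member. Over all genes tested, 3.36% passed. They were 5 of 9 regulators tested, 1 of 10 receptors and adaptors and 3 of 10 myeloid genes among the listed genes, and none of 12 partners or 8 flanking genes. The regulators were CEBPB at -2.46, CEBPA at -1.25, CEBPD at -1.18, KLF4 at -1.18 and SPI1 at -0.78. The receptor gene TLR4 was at -0.61, and the myeloid genes were ITGAM, an integrin chain, at -1.66, MPO at -1.64 and LYZ at 0.79. Without ITD control 2 the test of the difference passed in 17% of all genes and in 6 of 9 members: S100P at -2.09, S100A8 at -1.90, S100A9 at -1.49, S100A11 at -0.87, S100A10 at -0.47 and S100A4 at 0.62. That library departs from its label in FLT3. It also lies outside the other ITD controls in the levels of S100A8, S100A9, S100A10, S100A11, S100A12 and S100P given above. It lies between them in S100A4, S100A6 and S100A13, and how often it lies outside over all genes was not counted. What sets it apart was not tested.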

How the results depend on the processing

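Of 835 values of member log2 fold changes under the alternatives, 783 kept their direction and side of the threshold, 41 gained a call, 4 lost one and 7 turned sign. Called members in OCI-AML3 (4) became 7 with only the groups compared, where 11333 of 16875 genes were called in place of 7816 of 18908. Called members there ran from 4 to 8 with libraries left out. For the difference between lines (0) they were 3 by DESeq2, 2 with no filter and 0 to 6 with libraries left out, all 4 groups being in that fit. Between treated lines (2) they were 6 with only the groups compared and 1 to 6 with libraries left out, S100A8 losing its call without treated ITD library 1 (-1.89, adjusted p 0.0573, edgeR). Between untreated lines (4) they were 2 with only the groups compared and 3 to 6 with libraries left out, S100A6 (-0.37, adjusted p 0.0864, edgeR) and S100P (3.46, adjusted p 0.0688) losing their calls with only the groups compared. Sign turned in S100A11 in the ITD line (-0.0032 without treated ITD library 1 and -0.17 without ITD control 2, in a range up to 0.26). It turned in S100A12 there (-0.03 without treated ITD library 2 and -0.43 without ITD control 2, in a range up to 0.90) and between untreated lines (0.18 without ITD control 2, in a range down to -1.15). It turned in S100A13 in OCI-AML3 (0.30 without OCI-AML3 control 2, in a range down to -0.58) and between treated lines (-0.0075 without treated ITD library 2, in a range up to 0.46). None of these had been called, and the cause was not tested. In the ITD line receptors (6 called) became 3 with only the groups compared, partners (6) became 1, or 3 to 9 with libraries left out, regulators (4) became 7 by DESeq2 and 4 to 7 with libraries left out, and flanking genes (1) became 2 by DESeq2, 3 with library totals, 0 with only the groups compared, 2 with a stricter filter and 0 to 2. Partners in OCI-AML3 (5) became 9 with only the groups compared and 3 to 8. Over all genes, calls for the difference (635) were 1441 by DESeq2, 349 with the replicate block and 105 to 3177 with libraries left out. With only the groups compared they were 1618 in place of 5767 in the ITD line, 1736 in place of 5289 between untreated lines and 9581 in place of 4916 between treated lines. Libraries with the same replicate number did not deviate together (correlations from -0.03 to 0.12), and the replicate block left the members called at 4 in the ITD line, 4 in OCI-AML3, 0, 2 between treated and 4 between untreated lines. Counts of 1 to 36 limit S100A12.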
